A study of Rattus norvegicus with 47 samples.

Results

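The cytochrome P450 genes of families 2 and 4 and of subfamily 3A were followed through the stages of liver tumour growth in rats. Members were all genes with their own probe set and a symbol starting with Cyp2, Cyp3a or Cyp4 plus a subfamily letter, apart from Cyp2c11 and Cyp2e1. Membership uses no measured value, but it was set with earlier results of these data known. Where a gene had several probe sets, that of highest mean signal was taken. The members were 37 of the 14217 genes measured, 23 of family 2, 4 of family 3 and 10 of family 4, in 15 subfamilies. Probe sets that the annotation gives to several genes were left out. Among them were 4 with such P450 genes, including the shared probe set of Cyp2b1 and Cyp2b2, the classical phenobarbital targets, which were not analysed here.

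The RNA of male Wistar rats was hybridised to 47 Affymetrix arrays, 1 sample on each. At the age of 4 weeks the animals of all compared groups were given the liver carcinogen N-nitrosomorpholine once, at 250 mg/kg, and 3 weeks later phenobarbital was put in their drinking water (50 mg/kg per day) until at most 17 months. Frozen tissue gave 7 arrays of surrounding liver from 5 animals, 5 of nodules from 3, 6 of adenomas from 2, 4 of carcinomas from 3, and 4 of carcinomas whose label names a beta-catenin mutation, also from 3. Formalin-fixed, paraffin-embedded (FFPE) tissue, cut out by laser microdissection, gave 4 arrays of surrounding liver from 4 animals, 9 of foci from 3 and 5 of adenomas from 3. Surrounding liver carried the same nitrosamine and phenobarbital exposure as the lesions, so no comparison here measures the response to phenobarbital. Many lesions came from the same rat, and 7 rats stand behind all the grouped arrays. The source name of beta-catenin carcinoma replicate 1 lacks the mutation, and that of FFPE adenoma replicate 4 reads as surrounding tissue. Another 3 arrays named C43 normal have conflicting labels and entered no comparison.

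Cytochrome P450 enzymes are haem proteins of the endoplasmic reticulum that take electrons from P450 reductase and insert an oxygen atom into drugs, steroids and fatty acids. In liver, families 2 and 3 mainly oxidise foreign compounds, steroids and retinoids, and family 4 hydroxylates the ends of fatty acids and eicosanoids. Transcription of several genes of families 2 and 3, though not of all, is driven by the nuclear receptors CAR (Nr1i3) and PXR (Nr1i2), which bind DNA together with RXR. That of Cyp4a is driven by PPAR alpha. In rats several members differ between the sexes, because the pulses of growth hormone in males keep a male set on and the steadier secretion in females keeps a female set on. Cyp2c12 is the classical female gene, and Cyp2c13, Cyp2a2, Cyp3a2 and Cyp3a18 are male genes.

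Levels are log2 signals of 1 probe set per gene, and differences are log2 differences, lesion minus surrounding liver, ± standard error (SE) of a linear model (limma) with the animal as a block. Called means that the p, adjusted after Benjamini and Hochberg over all 14217 genes, was under 0.05. A second fit of the frozen arrays took the labelled control set in place of the animal, and is named where it ends a call. Levels are compared within a gene only. P450 subfamilies hold close paralogs, and a probe set can pick up RNA of a neighbour, so a value for 1 paralog is uncertain to that extent. Array medians lay between 5.49 and 5.68. Hepatocyte markers were bright, as the liver label requires: the mean log2 signal of 10 such genes spanned 13.78 to 13.95 over the frozen surrounding arrays and 13.36 to 13.63 over the FFPE ones. In such tissue samples, frozen or microdissected, fewer cells of a type and less RNA per cell cannot be told apart.

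Most of the family was lower in frozen adenomas. Of the 37 members 22 fell and 3 rose, against 9.57% of all genes called lower and 15.4% called higher in this comparison. In carcinomas 10 fell and none rose (6.91% and 4.48% of all genes), and in beta-catenin carcinomas 8 fell and 1 rose (9.58% and 7.74%). In foci 4 fell and 1 rose (1.36% and 1.81%). FFPE adenomas gave no called member (0.872% of all genes lower and 1.29% higher), and nodules gave none (0.225% of all genes in either direction). At an unadjusted p under 0.05 there were 10 members in FFPE adenomas (1716 of all 14217 genes) and 8 in nodules (1811 of all genes). The median difference of the 37 members was -0.59 in frozen adenomas, -0.25 in carcinomas, -0.15 in beta-catenin carcinomas, -0.22 in foci, -0.27 in FFPE adenomas and -0.18 in nodules, where the medians over all genes lay between -0.02 and 0.02. Altogether 25 members were called in at least 1 of the 6 comparisons with surrounding liver and 12 in none. The members called higher in any of these 6 comparisons were Cyp2c12, Cyp2j10 and Cyp4f17. The 7 members that fell in adenomas and in both carcinoma groups were Cyp2c7, Cyp2c23, Cyp2j3, Cyp4a3, Cyp4a8, Cyp4f1 and Cyp4f4. Single arrays carried part of this: without carcinoma replicate 4 (animal 23) carcinomas had 5 called members, and without FFPE surrounding replicate 3 or 4 foci had 2 or 3. The shares of all genes called in these reduced fits are not given here, so the drops are not particular to the members. The 6 comparisons share surrounding arrays within a fixation, so they are not independent of each other.

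**Figure D1:**
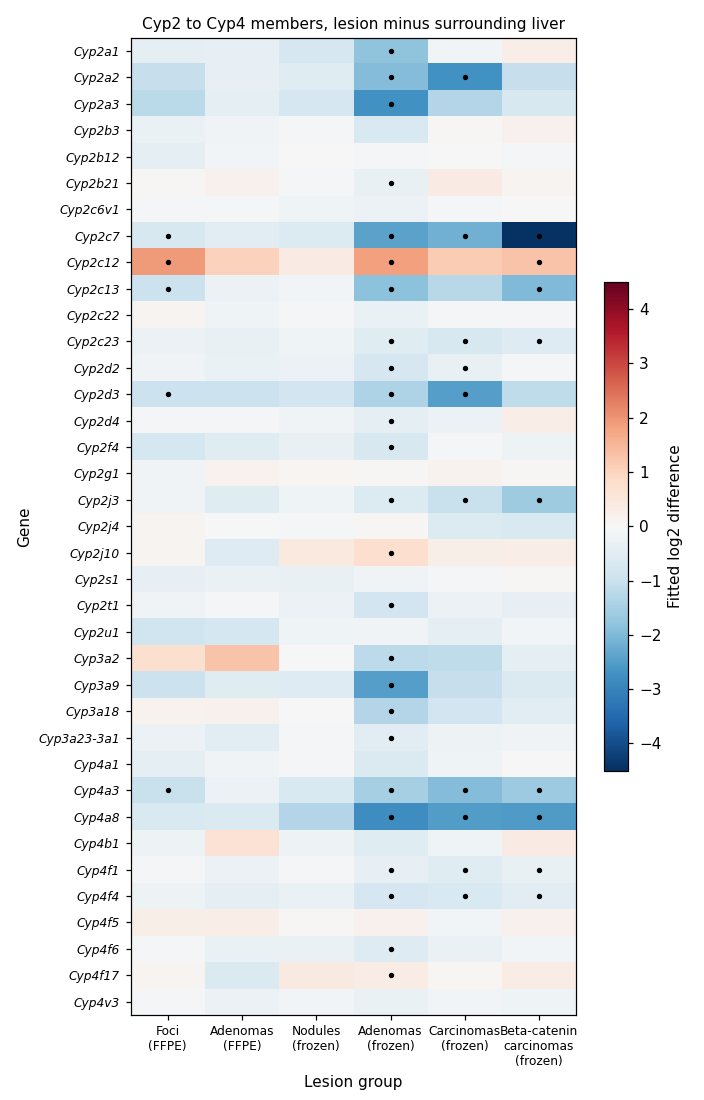
Fitted log2 difference of the 37 members (rows) between each lesion group and the surrounding liver of the same fixation (columns), blue lower and red higher in the lesion. Black dots mark genes called at an adjusted p under 0.05: the frozen adenoma column holds 25 dots, the nodule and FFPE adenoma columns none, and Cyp2c12 is red in all 6 columns.

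With the control set as block, frozen adenomas had 16 lower and 2 higher members (14.9% of all genes called in either direction), carcinomas 8 lower (6.36%) and beta-catenin carcinomas 6 lower (10.2%), and nodules again none (0.0% of all genes). Both fits called 18 members in adenomas, 7 in carcinomas and 6 in beta-catenin carcinomas. In carcinomas the second fit ended the calls of Cyp2a2, Cyp2c7 and Cyp4f4 (adjusted p = 0.0546, 0.08 and 0.0753) and added that of Cyp4f6 (adjusted p = 0.043). The calls that this fit ended in adenomas were those of Cyp2a2, Cyp2b21, Cyp2c13, Cyp2f4, Cyp3a2, Cyp3a23-3a1 and Cyp4f17, with adjusted p between 0.0823 and 0.139 there. The surrounding arrays of the carcinoma control sets (n = 3) differed from the other frozen surrounding arrays (n = 4) in 6.15% of all genes, and in 2 members, Cyp2a1 (0.64 ± 0.16) and Cyp4f6 (0.45 ± 0.09), both higher in the carcinoma sets. That comparison was added after the data were seen and has no animal term, although animals 10 and 23 gave an array to each side.

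**Figure D2:**
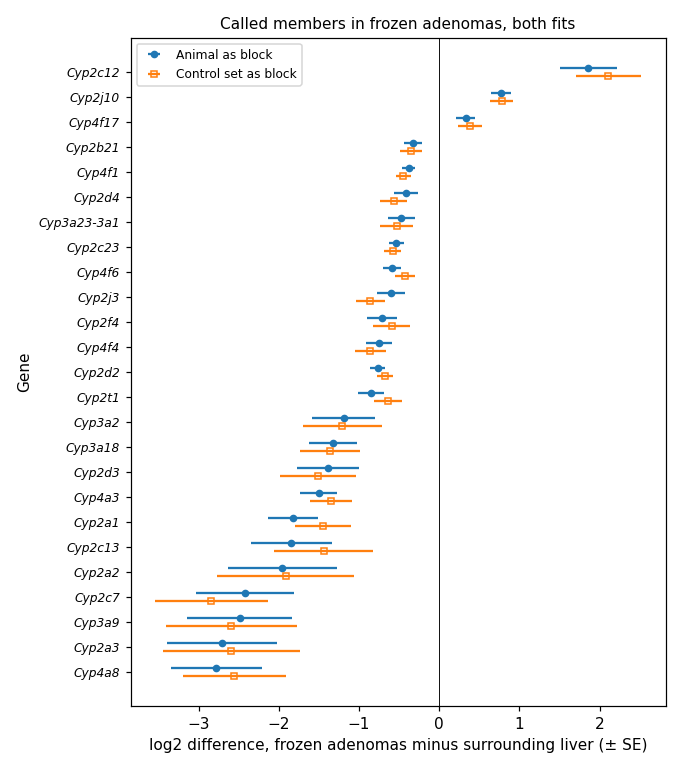
Log2 difference between frozen adenomas and surrounding liver (horizontal axis, ± SE) for the 25 called members, with the animal as block (filled circles) and with the control set as block (open squares). All 25 lie on the same side of 0 in both fits, from Cyp4a8 at -2.78 to Cyp2c12 at 1.86 with the animal as block.

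The Cyp2c genes moved in both directions. Cyp2c12, which hydroxylates steroid sulfates in female liver, rose in foci, frozen adenomas and beta-catenin carcinomas, while its neighbour Cyp2c13, a male steroid hydroxylase, fell in the same 3 groups. The 1 probe set of Cyp2c13 carries the suffix _s_at, used for probes that can match several transcripts. RNA of a paralog may therefore add to its signal. RefSeq places Cyp2c12, Cyp2c13, Cyp2c7, Cyp2c22 and Cyp2c6v1 in 1 cluster on chromosome 1, taking members as clustered when neighbours are at most 20 gene positions apart. The 250 bases before the start of Cyp2c12 (chr1:248677035-248677284) and Cyp2c13 (chr1:248787189-248787438), both on the minus strand of RefSeq's GRCr8 assembly, are shown because these neighbours moved in opposite directions. Capitals mark the nuclear receptor motif AGTTCA and the TATA box TATAAA on either strand.
Cyp2c12: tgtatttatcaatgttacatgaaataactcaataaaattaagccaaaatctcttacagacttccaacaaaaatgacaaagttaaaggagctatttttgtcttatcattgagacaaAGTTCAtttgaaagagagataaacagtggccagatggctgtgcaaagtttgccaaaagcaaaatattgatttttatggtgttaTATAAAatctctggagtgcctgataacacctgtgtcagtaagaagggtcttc
Cyp2c13: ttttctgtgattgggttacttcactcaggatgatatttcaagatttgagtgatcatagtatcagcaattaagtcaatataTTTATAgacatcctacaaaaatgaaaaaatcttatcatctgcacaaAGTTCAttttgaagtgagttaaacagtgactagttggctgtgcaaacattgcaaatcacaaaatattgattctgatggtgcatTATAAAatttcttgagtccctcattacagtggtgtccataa
The 2 sequences were identical at 60.7% of their aligned positions. Each held AGTTCA, starting 135 bases before the start of Cyp2c12 and 124 before that of Cyp2c13. Of the 31 members with a promoter in the table, 10 held AGTTCA, against 12.2% of 33469 promoters of the same length, and 7 held TATAAA, against 12.9%.

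Cyp2c12 had a log2 signal of 11.79, 8.21, 7.53 and 11.82 in the 4 FFPE surrounding arrays and of 10.35 to 12.59 (median 12.17, 9 arrays) in foci. The foci came from animals 7, 10 and 18. In animal 18 the surrounding array read 7.53 and its foci 10.88, 12.33 and 10.35. In animals 7 and 10 the surrounding arrays were already at 11.82 and 11.79. The fitted rise was 1.92 ± 0.47 (3.77-fold, adjusted p = 0.0194, higher in 3 of 3 animals), and the groups overlapped. The call was lost without either of 2 surrounding arrays: without surrounding replicate 3 (animal 18) it was 1.18 (adjusted p = 0.362), and without replicate 2 (animal 14) 1.47 (adjusted p = 0.0723).

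In frozen tissue Cyp2c12 ran from 9.70 to 13.27 (median 12.14, 7 arrays) in surrounding liver and from 11.42 to 13.05 (median 12.49, 6 arrays) in adenomas. Nodules read 12.76, 12.77, 12.93, 12.38 and 11.12. Carcinomas read 13.07, 12.82, 13.22 and 12.21, and beta-catenin carcinomas 12.97, 12.77, 11.94 and 12.54. The surrounding arrays covered the whole range of the lesions, and the fitted rise is a difference within animals. It was 1.86 ± 0.35 in adenomas (3.63-fold, adjusted p = 0.000788, higher in 2 of 2 animals) and 1.27 ± 0.37 in beta-catenin carcinomas (adjusted p = 0.0201, higher in 2 of 3 animals). Without the animal term the adenoma difference was 0.87 (adjusted p = 0.203). The beta-catenin call was lost with the control set as block (adjusted p = 0.0736) and when surrounding replicate 6 or 7 or lesion replicate 3 or 4, all of animal 23, was left out (adjusted p between 0.0511 and 0.0876). Carcinomas without the mutation label gave 1.16 ± 0.38 (adjusted p = 0.0522) and nodules 0.36 ± 0.36 (adjusted p = 0.738).

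In Cyp2c12, Cyp2c13, Cyp3a2 and Cyp3a18, singled out after their values were seen, the surrounding livers themselves differed between animals. Frozen surrounding liver of animals 10, 11 and 21 had Cyp2c12 at 12.62 and 12.14, 13.27, and 12.80. Animal 14 read 10.09 and animal 23 read 9.89 and 9.70. The male gene Cyp2c13 read 13.29 in animal 14 and 13.42 and 13.48 in animal 23, its highest values, against 11.33 in animal 11, its lowest. Cyp3a2 was also highest in animals 14 and 23 but lowest in animal 10: it read 13.60 in animal 14 and 13.66 and 13.57 in animal 23, and 11.42 and 12.01 in animal 10. Cyp3a18 read 12.67 in animal 14 and 12.71 and 12.67 in animal 23, and was lowest in animal 11 (10.66). Other members known to differ between the sexes did not all split this way. The female gene Cyp2c7 lay between 13.54 and 14.004 in frozen surrounding liver, with both ends in animal 10. Cyp3a9, also higher in females, was highest in animals 11 (11.48) and 14 (11.12) and lowest in animal 10 (10.02 and 9.89). The male gene Cyp2a2 did split this way in frozen tissue, where it read 11.60 in animal 14 and 12.01 and 11.95 in animal 23. Animals 10, 11 and 21 read 11.13 and 11.16, 11.22, and 10.72. In FFPE tissue, however, Cyp2a2 was lowest in animal 14 (10.69). In FFPE tissue, surrounding liver of animal 14 again read low for Cyp2c12 (8.21) and high for Cyp3a2 (12.80), and that of animal 10 high for Cyp2c12 (11.79) and low for Cyp3a2 (8.70). The split was not limited to genes named here for a sex difference. In frozen surrounding liver Cyp2a3 read 9.12 in animal 14 and 6.49 and 7.06 in animal 23. Animals 10, 11 and 21 read 11.22 and 11.23, 9.88, and 10.14. Cyp4a3 was highest in animals 14 (10.72) and 23 (11.16 and 11.50). How many members split this way was not counted. All frozen adenomas came from animals 14 and 23, so the fitted adenoma differences compare with the surrounding livers where Cyp2c12 and Cyp2a3 were low. The male gene Cyp2c11, not a member, fell in foci (-2.10 ± 0.25), frozen adenomas (-1.98 ± 0.59) and beta-catenin carcinomas (-3.01 ± 0.61).

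**Figure D3:**
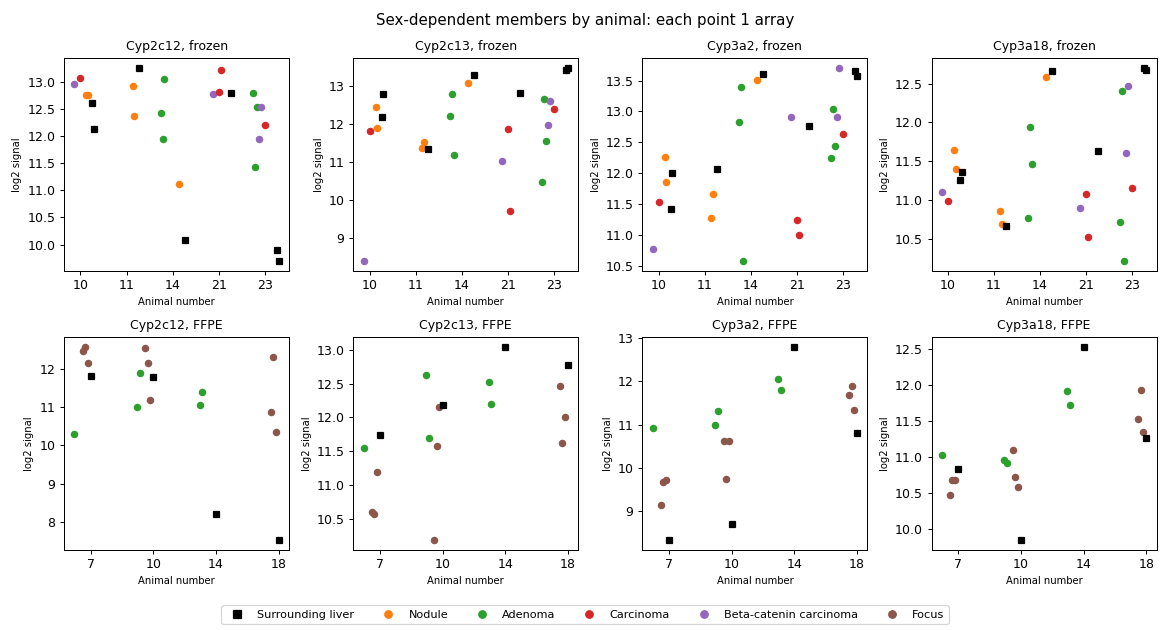
Log2 signal of Cyp2c12, Cyp2c13, Cyp3a2 and Cyp3a18 by animal (horizontal axis) in frozen arrays (upper row) and FFPE arrays (lower row), 1 point per array shifted sideways by group, black squares for surrounding liver. The frozen squares of animals 14 and 23 are low for Cyp2c12 and high for the other 3 genes, and every adenoma of these animals lies above their squares for Cyp2c12.

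Cyp2c13 differed by -1.84 ± 0.51 in frozen adenomas (adjusted p = 0.0114, lower in 2 of 2 animals). Its signal there was 10.47 to 12.79 (median 11.88, 6 arrays), against 11.33 to 13.48 (median 12.81, 7 arrays) in surrounding liver, and the groups overlapped. The call was lost with the control set as block (adjusted p = 0.124) and without the animal term (-0.94, adjusted p = 0.214). Beta-catenin carcinomas read 8.39, 11.03, 11.97 and 12.59, a difference of -1.998 ± 0.52 (adjusted p = 0.0114). That call rested on replicate 1, whose source name lacks the mutation: without it the difference was -1.11 (adjusted p = 0.127). Foci read 10.19 to 12.47 (median 11.58, 9 arrays), against 12.19, 13.05, 12.78 and 11.74 in surrounding liver (-0.96 ± 0.24, adjusted p = 0.0236, lower in 3 of 3 animals). Leaving out any of the 4 surrounding arrays ended the call in foci (adjusted p between 0.0648 and 0.0993). Carcinomas read 11.81, 11.86, 9.70 and 12.39 and were not called (-1.26 ± 0.55, adjusted p = 0.153).

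Cyp2c7, which oxidises retinoic acid and is higher in females, fell in 4 groups, and its fall in beta-catenin carcinomas was the largest fitted difference of any member in the comparisons with surrounding liver. Frozen surrounding liver read 13.54 to 14.004 (median 13.83, 7 arrays) and nodules 13.35, 13.27, 13.57, 13.44 and 13.33. Beta-catenin carcinomas read 10.78, 11.03, 7.51 and 7.64, adenomas 9.26 to 13.03 (median 10.39, 6 arrays) and carcinomas 12.90, 12.49, 11.05 and 10.86. No array of these 3 groups reached the lowest surrounding array. The difference was -4.44 ± 0.63 in beta-catenin carcinomas (21.7-fold lower, adjusted p = 7.8e-05), with the lowest arrays in animal 23, and -2.42 ± 0.61 in adenomas (adjusted p = 0.00632). In carcinomas it was -2.16 ± 0.65 (adjusted p = 0.0362), a call lost with the control set as block (adjusted p = 0.08) and on leaving out any of 4 surrounding arrays (replicates 4 to 7) or carcinoma replicate 1, 3 or 4 (adjusted p up to 0.132). The difference between the carcinoma groups was -2.28 ± 0.70 (adjusted p = 0.598). Foci read 12.21 to 13.38 (median 13.25, 9 arrays), all below the 4 surrounding arrays at 13.81, 13.77, 13.64 and 13.76 (-0.72 ± 0.13, adjusted p = 0.000962). The call in foci held in every fit that left out 1 array, and was lost without an intensity trend in the variance (adjusted p = 0.0822).

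Cyp2c23, an arachidonic acid epoxygenase, fell by a small amount in frozen adenomas and in both carcinoma groups. Its signal was 12.91 to 13.14 (median 13.04, 7 arrays) in surrounding liver, 12.38 to 12.80 (median 12.59, 6 arrays) in adenomas, 12.69, 11.88, 11.96 and 12.19 in carcinomas and 12.73, 12.07, 12.48 and 12.33 in beta-catenin carcinomas, with no overlap between lesions and surrounding liver. The differences were -0.53 ± 0.10, -0.73 ± 0.10 and -0.59 ± 0.10 (adjusted p = 0.000494, 0.00031 and 0.000391). Cyp2c6v1, a drug-oxidising enzyme that phenobarbital induces, and Cyp2c22, a retinoic acid hydroxylase, were called in no comparison. Their differences in frozen adenomas were -0.26 ± 0.10 and -0.30 ± 0.18. The Cyp2c subfamily thus holds members called up, called down and called in no group.

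**Figure D4:**
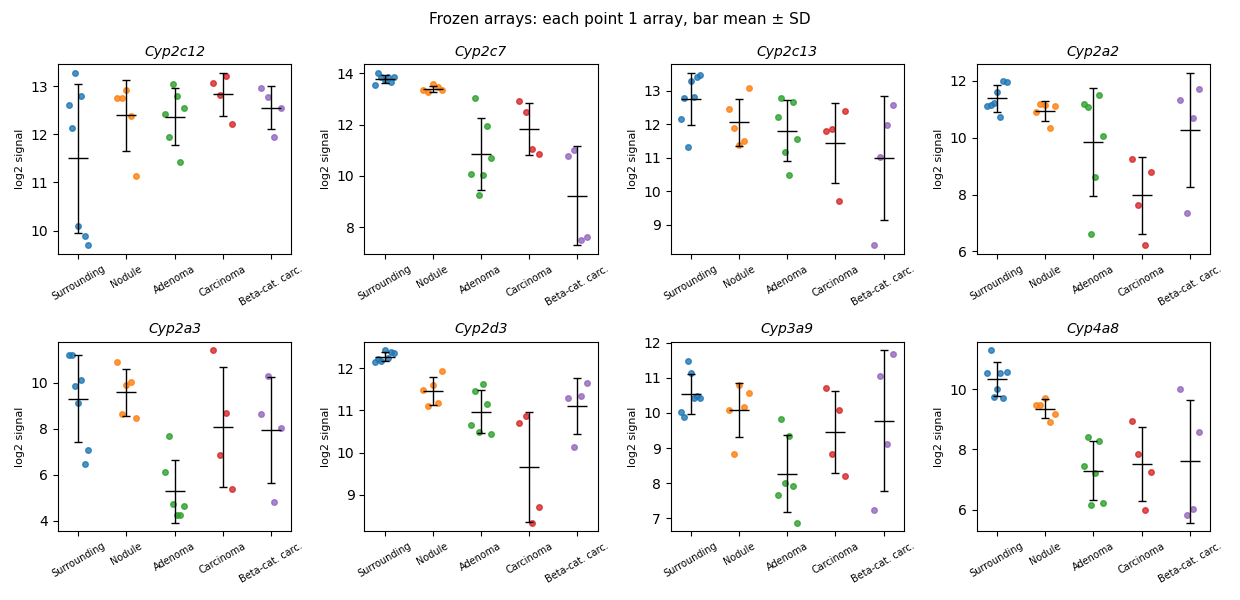
Log2 signal of 8 members (vertical axes) in each frozen array, by group along the horizontal axis, with the mean ± SD in black. Every adenoma and every carcinoma without the mutation label lies below the surrounding arrays for Cyp2c7, Cyp4a8 and Cyp2d3, whereas the surrounding arrays of Cyp2c12 span 9.70 to 13.27.

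All 4 Cyp3a members fell in frozen adenomas and none was called in carcinomas, beta-catenin carcinomas, nodules, foci or FFPE adenomas. Cyp3a2 and Cyp3a18 are male steroid and drug hydroxylases, Cyp3a9 is a female-predominant steroid hydroxylase, and Cyp3a23-3a1 is the enzyme that PXR activators induce. Cyp3a2, Cyp3a18 and Cyp3a23-3a1 form a cluster on chromosome 12. The 250 bases before Cyp3a2 (chr12:14343858-14344107) and Cyp3a23-3a1 (chr12:14398804-14399053), minus strand, GRCr8 in RefSeq, are shown for the motif they share. Capitals mark AGGTCA, the related motif AGTTCA and the FoxA core TGTTTAC on either strand.
Cyp3a2: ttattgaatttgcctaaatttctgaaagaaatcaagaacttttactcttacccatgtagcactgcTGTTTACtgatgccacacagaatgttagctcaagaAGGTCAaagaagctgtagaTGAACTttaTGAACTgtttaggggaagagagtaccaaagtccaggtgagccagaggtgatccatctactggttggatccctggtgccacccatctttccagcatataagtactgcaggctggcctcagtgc
Cyp3a23-3a1: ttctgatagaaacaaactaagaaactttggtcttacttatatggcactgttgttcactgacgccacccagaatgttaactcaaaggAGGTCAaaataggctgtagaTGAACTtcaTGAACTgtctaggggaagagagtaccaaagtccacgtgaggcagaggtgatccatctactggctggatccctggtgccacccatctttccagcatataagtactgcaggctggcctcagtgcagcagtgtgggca
Both sequences hold 2 copies of AGTTCA, read on the opposite strand, with 3 bases between them, the arrangement known from Cyp3a genes as the PXR and RXR response element. Of the 33469 promoters 2 held AGTTCANNNAGTTCA (0.00598%), and these were the 2 shown. The copies start 131 and 122 bases before Cyp3a2, and 144 and 135 before Cyp3a23-3a1. A copy of AGGTCA lies further upstream in each, as in 9 of 31 members and 14.1% of all promoters, and Cyp3a2 alone of these 2 also held the FoxA core, as did 5 of 31 members and 3.21% of promoters. The sequences were identical at 79.2% of aligned positions. A match describes letters and does not show that a factor binds there.

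Cyp3a9 had the largest fall of the subfamily. It read 9.89 to 11.48 (median 10.44, 7 arrays) in frozen surrounding liver and 6.88 to 9.81 (median 7.96, 6 arrays) in adenomas, and the groups did not overlap (-2.49 ± 0.65, 5.61-fold lower, adjusted p = 0.00826). Carcinomas read 10.72, 8.83, 10.10 and 8.20 and beta-catenin carcinomas 7.25, 11.04, 9.12 and 11.68, reaching from below the surrounding range into or past it. Cyp3a18 read 10.66 to 12.71 (median 11.63, 7 arrays) in surrounding liver and 10.21 to 12.41 (median 11.11, 6 arrays) in adenomas (-1.32 ± 0.30, adjusted p = 0.00308). These ranges overlapped, and without the animal term the difference was -0.60 (adjusted p = 0.256). Cyp3a23-3a1 differed least (-0.47 ± 0.17, adjusted p = 0.0475), and its adenoma replicate 3 at 12.51 lay apart from the other adenomas.

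The fitted difference of Cyp3a2 was negative in frozen adenomas and positive in FFPE adenomas, where it missed the threshold. Frozen surrounding liver read 11.42 to 13.66 (median 12.76, 7 arrays) and frozen adenomas 10.58 to 13.40 (median 12.63, 6 arrays), a difference of -1.19 ± 0.39 (adjusted p = 0.0308). It was lost with the control set as block (adjusted p = 0.108), without the animal term (-0.30, adjusted p = 0.684) and on leaving out surrounding replicate 4 or 7 or adenoma replicate 4 or 6 (adjusted p up to 0.0808). FFPE surrounding liver read 8.70, 12.80, 10.80 and 8.34, and FFPE adenomas 10.99, 11.31, 12.05, 11.81 and 10.92. They gave 1.28 ± 0.35 (adjusted p = 0.0539). The frozen minus the FFPE effect was -2.47 ± 0.58 (adjusted p = 0.0476), the only member called in that test (0.331% of all genes). Animal 14 is the only rat with adenomas in both sets, and there the FFPE adenomas (12.05 and 11.81) also lay below their surrounding array (12.80), while those of animals 7 and 10 lay above theirs. By the tumour numbers in their titles, these 2 FFPE adenomas are the same tumours as frozen adenoma replicates 2 and 3, which read 13.40 and 10.58. The fit does not use this pairing of tumours. The call of the difference was lost on leaving out any of 14 arrays in turn (frozen surrounding replicates 2 to 7, frozen adenomas 4 and 6, FFPE surrounding replicates 1, 3 and 4, FFPE adenomas 1, 2 and 5), with values from -2.51 to -2.09. It was also lost without the animal term (-1.56, adjusted p = 0.468) and with the animal as a random block (-1.83, adjusted p = 0.305). Fixation, laser microdissection and any difference in RNA labelling go together in every rat and cannot be told apart. For rats other than animal 14, the animals sampled cannot be told apart from these either.

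The Cyp2a genes fell together in frozen adenomas. Cyp2a1, a testosterone hydroxylase, read 11.08 to 12.16 (median 11.66, 7 arrays) in surrounding liver and 9.06 to 10.25 (median 9.60, 6 arrays) in adenomas. Every adenoma lay below every surrounding array (-1.82 ± 0.31, 3.54-fold lower, adjusted p = 0.000338). Its carcinomas read 12.26, 10.70, 11.48 and 11.40 and its beta-catenin carcinomas 11.41, 12.12, 11.45 and 12.45, all but carcinoma replicate 2 within or above the surrounding range, with differences of -0.12 ± 0.34 and 0.30 ± 0.32, neither called. Cyp2a3, better known as a coumarin hydroxylase of lung and nose, read 6.49 to 11.23 (median 9.88, 7 arrays) in surrounding liver and 4.24 to 7.69 (median 4.70, 6 arrays) in adenomas (-2.71 ± 0.68, adjusted p = 0.00632). The groups overlapped. Its carcinomas spread from 5.37 to 11.41 (-1.32 ± 0.73, adjusted p = 0.275).

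Cyp2a2, the male member, fell most in the carcinomas without the mutation label. These read 9.25, 7.63, 6.22 and 8.81, all below the surrounding arrays at 10.72 to 12.01 (median 11.22, 7 arrays), a difference of -2.74 ± 0.73 (6.69-fold lower, adjusted p = 0.018). The call was lost with the control set as block (adjusted p = 0.0546) and without carcinoma replicate 1 or 4 or surrounding replicate 5 (adjusted p = 0.0582, 0.112 and 0.0941). Adenomas read 6.63 to 11.52 (median 10.57, 6 arrays), with replicate 3 of animal 14 at 6.63 and replicate 4 of animal 23 at 8.63 (-1.96 ± 0.68, adjusted p = 0.0404). This call was lost with the control set as block, without the animal term (adjusted p = 0.0975) and on leaving out any of surrounding replicates 3 to 7 or adenoma replicate 4 or 6 (adjusted p up to 0.108). Beta-catenin carcinomas read 11.34, 7.34, 10.70 and 11.73, of which replicate 2 (animal 21) was low, and were not called (-1.04 ± 0.70).

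Cyp2a1, Cyp2a2 and Cyp2a3 lie with Cyp2b3, Cyp2b12, Cyp2b21, Cyp2f4, Cyp2g1, Cyp2s1 and Cyp2t1 in a cluster of 10 members on chromosome 1, and the members of that cluster differed. Cyp2t1 read 7.14 to 7.56 (median 7.44, 7 arrays) in surrounding liver and 6.09 to 6.98 (median 6.62, 6 arrays) in adenomas, with no overlap (-0.85 ± 0.16, adjusted p = 0.000667). Cyp2f4, a lung enzyme that oxidises naphthalene, read 8.15 to 8.61 (median 8.28, 7 arrays) in surrounding liver and 7.46 to 7.96 (median 7.67, 6 arrays) in adenomas, again with no overlap (-0.72 ± 0.19, adjusted p = 0.00893, but 0.0935 with the control set as block). Neither was called in carcinomas (-0.25 ± 0.17 and -0.09 ± 0.20). Of the 3 Cyp2b genes, which belong to the phenobarbital-inducible subfamily, only the weakly measured Cyp2b21 was called: 3.64 to 4.05 (median 3.69, 7 arrays) in surrounding liver and 3.43 to 3.79 (median 3.57, 6 arrays) in adenomas (-0.33 ± 0.11, adjusted p = 0.0364). Its signals lay below the array medians, and the call was lost without any of surrounding replicates 4, 5 and 7 and adenomas 1, 2 and 6 (adjusted p up to 0.125). Cyp2b3, the constitutive liver form, gave -0.69 ± 0.28 in adenomas (adjusted p = 0.077). Cyp2g1, an enzyme of the olfactory lining, read 4.09 to 4.57 in surrounding liver and 4.14 to 4.51 in adenomas. Cyp2s1, also mainly found outside liver, read 4.72 to 4.98 and 4.29 to 5.02. Both stayed below the array medians and were called nowhere.

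The 3 Cyp2d genes, which oxidise amine drugs, all fell in frozen adenomas. Cyp2d2, the rat debrisoquine hydroxylase, had a small spread: 13.01 to 13.59 (median 13.38, 7 arrays) in surrounding liver against 12.53 to 12.75 (median 12.72, 6 arrays) in adenomas. The groups did not overlap (-0.77 ± 0.09, 1.7-fold lower, adjusted p = 1.78e-05). In carcinomas Cyp2d2 read 13.16, 13.09, 12.95 and 13.06 (-0.32 ± 0.10, adjusted p = 0.0404), a call lost without any of surrounding replicates 2, 3, 5 and 7 and carcinomas 2 to 4, with -0.26 without carcinoma replicate 4 (adjusted p = 0.243). Cyp2d4, better known from brain, fell by little (-0.41 ± 0.15, adjusted p = 0.0435). It read 8.02 to 8.71 (median 8.53, 7 arrays) in surrounding liver and 7.64 to 8.43 (median 8.04, 6 arrays) in adenomas, with overlap.

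Cyp2d3 fell in foci, adenomas and carcinomas. Foci read 10.29 to 11.50 (median 10.92, 9 arrays) and FFPE surrounding liver 12.22, 11.45, 11.91 and 11.79, which overlapped through the highest focus (-0.98 ± 0.24, adjusted p = 0.0189). This call was lost without surrounding replicate 1, 3 or 4 (adjusted p = 0.0683, 0.0892 and 0.131). Frozen surrounding liver read 12.15 to 12.41 (median 12.24, 7 arrays). Adenomas at 10.45 to 11.61 (median 10.89, 6 arrays) and carcinomas at 10.70, 10.86, 8.35 and 8.72 all lay below it. The differences were -1.39 ± 0.39 (adjusted p = 0.0127) and -2.47 ± 0.42 (5.55-fold lower, adjusted p = 0.000867). Carcinoma replicates 3 and 4, of animals 21 and 23, were the lowest. Nodules (11.49, 11.10, 11.60, 11.18 and 11.93) and beta-catenin carcinomas (11.29, 10.13, 11.33 and 11.63) also lay below every surrounding array, but missed the threshold (-0.85 ± 0.39, adjusted p = 0.37, and -1.13 ± 0.40, adjusted p = 0.0568).

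In the Cyp2j cluster on chromosome 5, Cyp2j3, which makes epoxides of arachidonic acid, fell and Cyp2j10 rose. Cyp2j3 read 9.85 to 10.79 (median 10.45, 7 arrays) in surrounding liver, 9.53 to 10.24 (median 9.74, 6 arrays) in adenomas, 9.50, 9.50, 8.77 and 9.37 in carcinomas and 9.29, 8.50, 8.59 and 8.80 in beta-catenin carcinomas. Both carcinoma groups lay wholly below surrounding liver, while adenomas overlapped it. The differences were -1.58 ± 0.18 in beta-catenin carcinomas (adjusted p = 1.49e-05, 3 of 3 animals), -0.99 ± 0.18 in carcinomas (adjusted p = 0.00166) and -0.60 ± 0.17 in adenomas (adjusted p = 0.0141). In adenomas the call was lost without surrounding replicate 4 (adjusted p = 0.0651), without adenoma replicate 6 (0.0509) and without the animal term (0.0761). A second probe set of Cyp2j3 gave -0.90 ± 0.19 in adenomas and -1.95 ± 0.19 in beta-catenin carcinomas. Cyp2j10 rose in adenomas (0.77 ± 0.13, 1.7-fold, adjusted p = 0.000252). Surrounding liver read 5.05 to 5.98 (median 5.36, 7 arrays) and adenomas 5.85 to 6.38 (median 6.12, 6 arrays). The groups overlapped through surrounding replicate 3 of animal 11, at 5.98. Cyp2j4 was called nowhere. Cyp2u1, a fatty acid hydroxylase of brain, read 5.91 to 7.41 in surrounding liver and 6.23 to 7.23 in adenomas and was called nowhere either.

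The Cyp4a genes, fatty acid hydroxylases under PPAR alpha, split alike in the 3 frozen tumour groups: Cyp4a3 and Cyp4a8 fell, and Cyp4a1 was not called. Cyp4a8 read 9.71 to 11.28 (median 10.52, 7 arrays) in frozen surrounding liver and 6.16 to 8.42 (median 7.34, 6 arrays) in adenomas. Carcinomas read 8.96, 7.84, 6.01 and 7.24 and beta-catenin carcinomas 10.02, 5.81, 6.03 and 8.57. Only beta-catenin replicate 1 reached the surrounding range. The differences were -2.78 ± 0.56 in adenomas (6.87-fold lower, adjusted p = 0.00131), the largest of any member there, -2.52 ± 0.61 in carcinomas (adjusted p = 0.00987) and -2.55 ± 0.58 in beta-catenin carcinomas (adjusted p = 0.00435). The carcinoma call was lost without surrounding replicate 5 or carcinoma replicate 4 (adjusted p = 0.0631 and 0.0634). A second probe set gave -2.34 ± 0.27 in adenomas and -2.29 ± 0.29 in carcinomas, and -1.73 ± 0.28 in beta-catenin carcinomas. Nodules lay at 9.48, 9.49, 9.70, 8.92 and 9.18, just below the surrounding arrays, and missed the threshold (-1.30 ± 0.57, adjusted p = 0.342). The second probe set gave -1.01 ± 0.27 in nodules, with a smaller SE.

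Cyp4a3 was the other member called in 4 groups besides Cyp2c7. It read 9.84 to 11.50 (median 10.57, 7 arrays) in frozen surrounding liver, 8.89 to 10.21 (median 9.58, 6 arrays) in adenomas, 8.003, 8.76, 8.41 and 9.29 in carcinomas and 8.71, 8.61, 9.58 and 9.60 in beta-catenin carcinomas. The carcinoma groups did not overlap surrounding liver. The differences were -1.50 ± 0.23, -1.97 ± 0.24 and -1.65 ± 0.24 (adjusted p = 0.000117, 0.000145 and 8.29e-05). In FFPE tissue foci read 9.88 to 11.86 (median 11.33, 9 arrays) and surrounding liver 11.28, 12.36, 11.96 and 12.45 (-0.99 ± 0.21, adjusted p = 0.00483, lower in 3 of 3 animals). The 3 lowest of these foci were those of animal 10, whose surrounding array was the lowest too. Without the animal term the call in foci was lost (adjusted p = 0.0936). All 5 calls in foci were lost when the model's prior variance took no trend with intensity, and 4 of them, all but Cyp2c7, without the animal term. Cyp4a1 gave -0.64 ± 0.33 in adenomas (adjusted p = 0.158) and 0.002 ± 0.34 in beta-catenin carcinomas. Its carcinomas and surrounding liver overlapped, at 9.85 to 10.52 and 9.63 to 10.39.

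Other PPAR alpha targets were read beside Cyp4a. Of 21 measured genes 6 fell and 1 rose in adenomas, in carcinomas and in beta-catenin carcinomas alike, with medians of -0.35, -0.28 and -0.29. Of all genes 9.57%, 6.91% and 9.58% fell in these groups, and 15.4%, 4.48% and 7.74% rose. With the control set as block 6, 4 and 4 of the 21 genes were called lower. Ehhadh, the bifunctional enzyme of peroxisomal fatty acid oxidation, fell in all 3 groups (-1.17 ± 0.22, -1.25 ± 0.24 and -1.66 ± 0.23). Fabp1, the liver fatty acid binding protein, fell in them too (-0.93 ± 0.22, -1.21 ± 0.23 and -1.50 ± 0.22), as did Acsl1, which activates long fatty acids (-0.97 ± 0.18, -1.11 ± 0.19 and -1.35 ± 0.19), and Acadm, a mitochondrial dehydrogenase of fatty acids (-0.73 ± 0.14, -0.49 ± 0.15 and -0.81 ± 0.15). Plin2, a lipid droplet coat protein, rose in adenomas (0.68 ± 0.21) and carcinomas (0.98 ± 0.23), and the former call was lost with the control set as block (adjusted p = 0.0755), as was that of Acadm in carcinomas (0.0962). Cpt1a, which lets fatty acids into mitochondria, fell in carcinomas (-0.95 ± 0.18), in beta-catenin carcinomas (-0.58 ± 0.18) and in foci (-1.02 ± 0.19). In foci 5 fell and 1 rose (median -0.41, with 1.36% and 1.81% of all genes). Angptl4, an inhibitor of lipoprotein lipase, fell there (-1.12 ± 0.32), as did Pdk4, Acsl1 and Fabp1, while Cd36, a fatty acid carrier, rose (1.52 ± 0.32). In FFPE adenomas Pdk4 (-0.83 ± 0.21) and Fabp1 (-0.64 ± 0.16) fell, and nodules gave no called gene of this list.

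The Cyp4f genes, which inactivate leukotrienes and other eicosanoids, changed by small amounts with a small spread. Cyp4f1 read 11.84 to 12.09 (median 11.97, 7 arrays) in surrounding liver, 11.38 to 11.75 (median 11.62, 6 arrays) in adenomas, 11.64, 11.18, 11.37 and 11.30 in carcinomas and 11.62, 11.45, 11.76 and 11.77 in beta-catenin carcinomas. No lesion array of these groups reached the surrounding range (-0.38 ± 0.08, -0.55 ± 0.09 and -0.32 ± 0.09, adjusted p = 0.00231, 0.000675 and 0.0116). Cyp4f4 did the same, at 11.16 to 11.41 (median 11.32, 7 arrays) in surrounding liver, 9.96 to 11.12 (median 10.48, 6 arrays) in adenomas, 10.83, 10.59, 10.36 and 10.56 in carcinomas and 10.90, 10.68, 11.15 and 10.41 in beta-catenin carcinomas (-0.75 ± 0.16, -0.68 ± 0.17 and -0.51 ± 0.17, adjusted p = 0.00196, 0.0142 and 0.0393). With the control set as block the calls of both in beta-catenin carcinomas were lost (adjusted p = 0.136 and 0.208), as was that of Cyp4f4 in carcinomas (0.0753). Cyp4f4 in beta-catenin carcinomas was also lost without any of surrounding replicates 1 and 3 to 6 and lesions 1, 2 and 4, up to an adjusted p of 0.158 without lesion replicate 4, and in carcinomas without replicate 4 (0.0865). The Cyp4f1 call in beta-catenin carcinomas was lost without replicate 1 (0.0561). Cyp4f6 read 8.99 to 9.64 (median 9.27, 7 arrays) in surrounding liver and fell to 8.57 to 9.01 (median 8.67, 6 arrays) in adenomas (-0.59 ± 0.12, adjusted p = 0.00112), while Cyp4f17 rose slightly (0.33 ± 0.12, adjusted p = 0.0457) and Cyp4f5 was called nowhere. All 5 lie in a cluster on chromosome 7.

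Cyp4b1 and Cyp4v3 were called in no group. Cyp4b1, which activates furan and amine toxins in lung, read 8.02 to 8.43 (median 8.17, 7 arrays) in surrounding liver and 6.58 to 8.73 (median 7.64, 6 arrays) in adenomas. Beta-catenin carcinomas spread from 6.997 to 10.17, the widest of its groups. Cyp4v3, a fatty acid hydroxylase known from the retina, read 10.46 to 11.45 (median 10.95, 7 arrays) in surrounding liver and 10.23 to 11.20 (median 10.89, 6 arrays) in adenomas (-0.30 ± 0.15, adjusted p = 0.159). A second, dimmer probe set of Cyp4v3 disagreed in size, with -0.86 ± 0.24 in adenomas and -1.30 ± 0.25 in beta-catenin carcinomas, against -0.20 ± 0.16 for the probe set used. The gene is therefore uncertain.

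Direct comparisons between lesion groups called no member. Between beta-catenin carcinomas and carcinomas no gene at all was called (0.0% of all genes). Cyp2d4 (0.55 ± 0.17) and Cyp2d3 (1.34 ± 0.45) were among the members with an unadjusted p under 0.05 there. Between adenomas and nodules no member was called (0.0% of all genes), with -0.49 ± 0.11 for Cyp2d2 (adjusted p = 0.0765). Between FFPE adenomas and foci none was called either (0.0% of all genes). At an unadjusted p under 0.05 that comparison had 7 members (633 of all 14217 genes). The larger number of calls in adenomas than in carcinomas is thus not a tested difference, and the groups also differ in size and animals. In FFPE adenomas the values nearest to the threshold were those of Cyp2d3 (-0.97 ± 0.27, adjusted p = 0.051) and Cyp3a2. Cyp2e1, the pericentral ethanol-oxidising P450, which is not a member, fell in foci (-1.03 ± 0.23) and frozen adenomas (-1.93 ± 0.40).

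**Figure D5:**
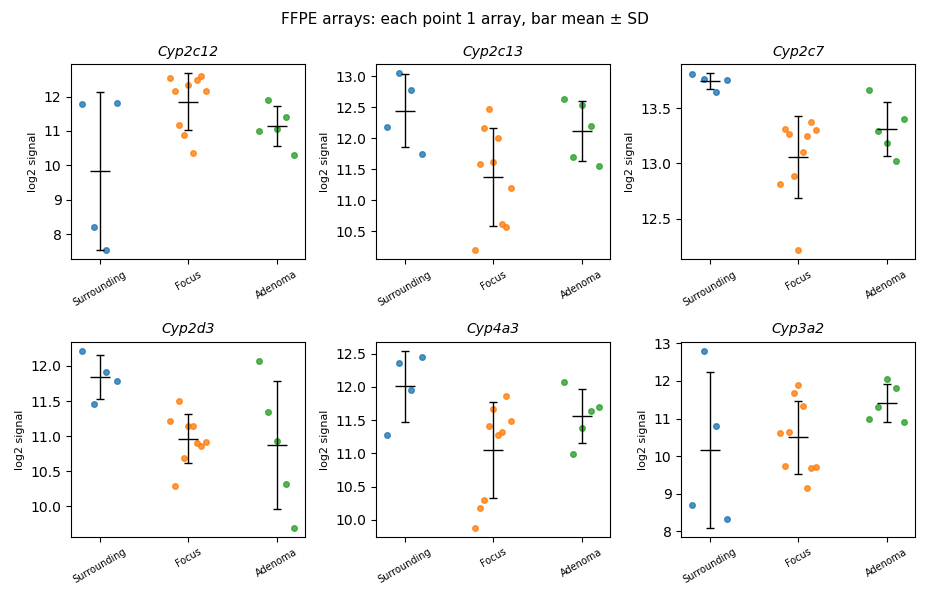
Log2 signal of the 5 members called in foci and of Cyp3a2 (vertical axes) in each FFPE array, by group along the horizontal axis, with the mean ± SD in black. All 9 foci lie below the 4 surrounding arrays for Cyp2c7, while for Cyp2c12 and Cyp3a2 the surrounding arrays themselves spread from 7.53 to 11.82 and from 8.34 to 12.80.

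Receptors and transcription factors that control P450 genes fell alongside in adenomas: 15 of 31 measured genes fell and none rose (9.57% and 15.4% of all genes). Cebpa, a hepatocyte differentiation factor, fell by the most after Onecut1, a liver homeobox factor (-1.48 ± 0.26 and -1.60 ± 0.41). The growth hormone receptor Ghr (-1.32 ± 0.21), Cux2, a factor of the female liver programme (-1.07 ± 0.23), Foxa3 (-1.04 ± 0.20) and Nr1i2, the receptor PXR (-0.96 ± 0.16), followed. In carcinomas 6 fell and 1 rose (6.91% and 4.48% of all genes), and in beta-catenin carcinomas 6 fell and 4 rose (9.58% and 7.74%). Onecut1 fell in both (-2.81 ± 0.44 and -2.45 ± 0.42), as did Foxa1, a pioneer factor of liver genes (-1.25 ± 0.27 and -1.30 ± 0.26), Cux2 (-1.03 ± 0.25 and -1.19 ± 0.24) and Ghr (-0.94 ± 0.23 and -1.37 ± 0.22). Nr3c1, the glucocorticoid receptor, fell in carcinomas (-0.59 ± 0.13). Nr1i3, the receptor CAR, rose in carcinomas (0.57 ± 0.15), beta-catenin carcinomas (1.13 ± 0.14) and foci (0.72 ± 0.17). Ahr, the dioxin receptor, rose in beta-catenin carcinomas (1.03 ± 0.24), and so did Ppara (0.65 ± 0.19), which had fallen in adenomas (-0.85 ± 0.18). With the control set as block 13, 6 and 8 genes were called lower and 0, 0 and 1 higher in adenomas, carcinomas and beta-catenin carcinomas, and Nr1i3 was the 1 called higher. The carcinoma calls of Ghr and Nr1i3 were lost there (adjusted p = 0.0518 and 0.123). In foci Onecut1 (-1.11 ± 0.25), Foxa3 (-0.97 ± 0.26) and Dbp, a clock factor (-0.50 ± 0.13), fell. In FFPE adenomas Onecut1 (-1.39 ± 0.28), Nr1i2 (-0.75 ± 0.17) and Dbp (-0.57 ± 0.15) fell, and nodules gave none.

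Genes of electron transfer to P450 enzymes and of haem synthesis, binding and breakdown were measured in 17 cases. Of these 4 fell and 1 rose in adenomas (9.57% and 15.4% of all genes). In carcinomas 3 fell (6.91%), and in beta-catenin carcinomas 3 fell (9.58%). The medians were -0.23, -0.06 and -0.10. Hmox2, a haem oxygenase, fell in these 3 groups (-0.62 ± 0.08, -0.47 ± 0.09 and -0.26 ± 0.09), as did Cyb5b, an outer mitochondrial cytochrome b5 (-0.54 ± 0.14, -0.66 ± 0.16 and -0.78 ± 0.15), and Pgrmc2, a haem-binding membrane protein (-0.42 ± 0.11, -0.49 ± 0.12 and -0.63 ± 0.11). Alad, an enzyme of haem synthesis, fell in adenomas (-0.73 ± 0.18). Pgrmc1, which binds P450 enzymes, rose in foci (0.78 ± 0.10), FFPE adenomas (0.76 ± 0.11) and frozen adenomas (0.31 ± 0.11). With the control set as block the adenoma calls of Pgrmc1 and Alad (adjusted p = 0.248 and 0.0779) and the carcinoma calls of Cyb5b and Pgrmc2 (adjusted p = 0.0748 and 0.0653) were lost. P450 reductase (Por) was not called in any of the 6 comparisons.

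Some markers of other cell types were called in these groups, and their part in the P450 results was not tested. Of all genes 15.4% rose and 9.57% fell in frozen adenomas, 4.48% and 6.91% in carcinomas, and 7.74% and 9.58% in beta-catenin carcinomas. In foci 1.81% rose and 1.36% fell, and in FFPE adenomas 1.29% and 0.872%. Several of the counts below, such as those of stellate cell genes in frozen adenomas and carcinomas, lie near these shares. In frozen adenomas 2 of 7 bile duct genes rose (Krt19 by 4.37 ± 1.02), and the mean signal of the list was 5.88 to 8.79 against 5.34 to 5.79 in surrounding liver. Of 10 hepatocyte genes 5 fell and 1 rose there, with means of 13.38 to 13.76 against 13.78 to 13.95. In carcinomas 4 of these 10 fell and none rose, and the same numbers held in beta-catenin carcinomas. Of 11 macrophage genes 4 fell in adenomas, 4 in carcinomas, 6 in beta-catenin carcinomas and 4 in foci, with means of 9.16 to 9.66 in frozen surrounding liver, 8.32 to 9.40 in adenomas, 8.18 to 8.99 in carcinomas and 7.93 to 9.01 in beta-catenin carcinomas. Of 13 stellate cell and fibroblast genes 2 rose in adenomas, 1 rose and 1 fell in carcinomas, 3 rose and 1 fell in beta-catenin carcinomas, 3 rose in foci and 3 in FFPE adenomas, where 2 bile duct genes rose too. Hepatocyte means in carcinomas were 13.45 to 13.54, in beta-catenin carcinomas 12.93 to 13.79, in nodules 13.75 to 13.88 and in foci 13.08 to 13.41. Among the remaining lists, 1 of 8 endothelial genes fell in beta-catenin carcinomas, 2 of 9 lymphocyte genes in adenomas, and 2 of 5 blood cell genes in adenomas and 1 in beta-catenin carcinomas.

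The members' signals were weakly correlated across arrays. Over the 26 grouped frozen arrays the median Pearson r was 0.184 for 46 pairs within a subfamily and 0.156 for 620 pairs between subfamilies, and over 18 FFPE arrays 0.159 and 0.096. These arrays share animals and lesion groups, so the values are descriptions. The closest frozen pairs were Cyp2c23 with Cyp4f1 (r = 0.863), Cyp2d2 with Cyp4f6 (0.836) and Cyp2d3 with Cyp4f1 (0.8), none of them from 1 subfamily. Cyp2c12 gave the most negative values, with Cyp3a18 (-0.785), Cyp4a3 (-0.751) and Cyp3a2 (-0.715). In FFPE tissue the closest pair was Cyp3a18 with Cyp3a2 (0.869), and the most negative was Cyp2c12 with Cyp2c13 (-0.733).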

How the data were processed

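RNA of liver and liver lesions was hybridised to Affymetrix rat arrays of 1 colour, 1 array per sample. Frozen RNA (250 ng) was labelled with a 3' IVT kit, per the labels' protocols; for microdissected FFPE RNA the kit was not given in the sources used here. What the authors deposited are log2 probe set summaries. How the authors corrected background, normalized and summarized was not given in the sources used here. Precision is limited by how many arrays there are. The values were used as deposited.

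Of 31042 probe sets, 20826 carry 1 gene symbol in GEO's platform annotation, 436 several and 9780 none. Probe sets with 1 symbol gave 14217 genes, each through its probe set of highest mean in the fixation, the same in both fixations for all 37 members. limma 3.58.1 (R 4.3.3) fitted frozen and FFPE arrays apart, with group and animal as terms and an intensity trend, leaving 17 and 12 residual degrees of freedom. A joint fit tested the adenoma effect, frozen minus FFPE. The script was tested on simulated data with 200 changed genes.

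The animal is taken from the titles and control sets; the animal field of the labels gives other numbers for the lesions of animal 21. Lesions of 1 animal share that animal, which is why it is a block. As a check, residuals after removing group means correlated with a median r of 0.127 between arrays of 1 animal and -0.025 between animals in frozen tissue, and of 0.11 and -0.0395 in FFPE tissue. Nothing says that arrays of 1 animal are separate extractions beyond their lesion labels, so p-values measure the spread between these arrays.

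The members and gene lists were chosen with earlier results of these data known. In each comparison all called members were named where 12 or fewer, otherwise the 12 of largest difference, plus the member of smallest adjusted p in each subfamily. Values per array were given for up to 3 members per subfamily, and up to 6 called genes were named per pathway list and comparison. Genes beyond that rule were named after their values were seen. Promoters are RefSeq's (GRCr8), matched by the gene identifier of the probe set for 31 members. Python 3.11.15 with Biopython 1.88 and matplotlib 3.10.9 read them and drew the plots. Alternatives were another block, another probe set rule, a filter on dim genes, quantile normalization, no intensity trend, only the groups compared, and leaving out doubtful or single arrays.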

Additional observations from a re-analysis of the deposited data

Results flagged for a closer look

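Of 216 sets of 1 gene in 1 group (27 genes), 5 held an array far from the rest, where chance gives about 1 in 20. Cyp2c7 read 12.21 in focus replicate 5 of animal 18, with the nearest focus at 12.81. Cyp4a8 read 12.43 in focus replicate 1 of animal 10 (nearest 11.23). Cyp2j10 read 5.98 in frozen surrounding replicate 3 of animal 11 (nearest 5.42). Cyp2s1 read 5.63 in beta-catenin carcinoma replicate 1 of animal 10, whose source name lacks the mutation (nearest 4.52), and Cyp2u1 read 7.14 in replicate 4 of animal 23 (nearest 6.55).

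The adenoma effect of Cyp3a2 differed between frozen and FFPE tissue by -2.47 (limma, adjusted p = 0.0476).

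The 2 frozen arrays named C43 normal entered no comparison. The lower of these 2 arrays lay above the highest of the 7 frozen surrounding arrays for 9 of the 27 genes checked. These 27 were the members with values per array, chosen mostly by their calls in lesions. No other member had both arrays above, or both below, the surrounding range. How many of all genes lie this way was not computed, so the counts cannot be set against a background. Cyp2a2 was at 12.05 (highest surrounding array 12.01), Cyp2d3 at 12.44 (12.41), Cyp2d4 at 9.03 (8.71) and Cyp2t1 at 7.58 (7.56). Cyp2u1 was at 7.64 (7.41), Cyp3a18 at 12.73 (12.71), Cyp3a9 at 11.96 (11.48), Cyp4f1 at 12.13 (12.09) and Cyp4f4 at 11.44 (11.41). Both arrays lay below every frozen surrounding array for 2 of the 27 genes, Cyp2c7 at 13.40 and 13.48 (lowest surrounding array 13.54) and Cyp4a8 at 9.15 and 9.31 (9.71). The 1 FFPE array named C43 normal lay above the 4 FFPE surrounding arrays for Cyp2a2, Cyp2u1, Cyp3a18, Cyp3a9 and Cyp4f1, within their range for Cyp2d3, Cyp2d4, Cyp2t1, Cyp4f4 and Cyp2c7, and below it for Cyp4a8 (10.78, lowest surrounding array 11.39).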

How the results depend on the processing

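The animal block pairs lesions with the surrounding liver of their rat. Without it 1 member was called in foci in place of 5, 17 in place of 25 in frozen adenomas, and 3 in place of 0 between adenomas and nodules. With the animal as a random block the numbers were 3, 18 and 3. In the test of frozen against FFPE adenomas 1 member other than Cyp3a2 was called without the block. In foci the mean of all probe sets gave 3 calls and no intensity trend 0. FFPE adenomas gave 2 calls over genes above the median level, 1 with quantile normalization, 1 with only the groups compared and 1 without the label-doubtful arrays, in place of 0. Nodules gave 2 with only the groups compared, in place of 0. The difference of the adenoma effects gave 0 calls in place of 1 with the mean of all probe sets, over genes above the median level, with quantile normalization and with no intensity trend, and 2 without the label-doubtful arrays. Leaving out 1 array at a time gave 2 to 6 calls in foci, 0 to 3 in FFPE adenomas (3 without adenoma replicate 1), 18 to 25 in frozen adenomas, 5 to 11 in carcinomas, 7 to 10 in beta-catenin carcinomas, 0 to 2 between adenomas and nodules (2 without adenoma replicate 2) and 0 to 4 for the difference of the adenoma effects (4 without FFPE surrounding replicate 2). The member counts above are not set beside the share of all genes called under the same setting. They describe how the calls depend on the fit and are not a result about the P450 genes. The cause of the changes in these counts was not tested. Of 43 called results on single genes, 20 stayed called in the same direction under every alternative run. Over all 909 alternatives none reversed and 138 missed the threshold, among them 14 of 43 without the block, 11 of 37 with the control set as block, 11 of 43 with the random block, 9 of 42 with only the groups compared, 6 of 43 with no intensity trend, 4 of 43 with quantile normalization, 3 of 43 each with the mean of all probe sets and without the label-doubtful arrays, and 1 of 42 above the median level. The control set block was not run for FFPE arrays. Signals below the array median, as of Cyp2b12, Cyp2b21, Cyp2g1 and Cyp2s1, carry little information on small differences.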
